A study of Triticum aestivum with 4 samples.

Results

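The miRNAs described here are the predicted miRNAs of wheat leaves whose opposite strand, the miRNA*, was itself sequenced. They were chosen as the rows of the table of predicted miRNAs that list a miRNA* sequence, and there were 55 of 82 predicted miRNAs, or 55 of the 453 miRNAs listed in all (371 known and 82 predicted). They are called star-supported miRNAs below, and the other 27 predicted miRNAs had no miRNA* listed. The leaves came from field-grown, wild-type winter wheat, cultivar Shimai 22, at the three-leaf stage, the winter dormancy stage, the spring green-up stage and the jointing stage. RNA from 3 biological replicates was mixed in equal amounts for each stage, so every stage is 1 small RNA library and the spread between plants was not measured. The libraries differ in plant age, season and leaf at once, and these cannot be told apart. Differences below are therefore differences between libraries, and intervals cover counting error only. The leaf identity was not checked against marker genes, because the files hold miRNAs only.

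A plant miRNA is cut from a stem-loop precursor by the Dicer-like enzyme DCL1, which releases a short duplex of the miRNA and its miRNA* with protruding 3′ ends. HEN1 methylates the duplex, and the miRNA is usually kept by the Argonaute protein AGO1 while the miRNA* is degraded, so a sequenced miRNA* is a sign that a precursor was cut as a duplex. In Arabidopsis AGO1 favours a 5′ U, which the table writes as T. Bread wheat carries the subgenomes A, B and D, so most loci have near-identical copies on related chromosomes, and short RNAs from such copies can be impossible to tell apart.

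Levels are given in TPM, meaning reads of a miRNA per 1000000 reads, rounded to 1 decimal. The reads of a library were taken to be its mapped reads, an assumption on which the estimated reads and counting intervals rest. The sequences below, as the table gives them, are those of the most abundant star-supported miRNAs and of those listed in a single stage at a high level. Bases 2 to 8, the seed, are in capitals.
novel_miR1544: aGTCTCTGccaattcttcgtg
novel_miR1560: tAAACCTTcacaaattcccttg
novel_miR390: tCCGCGATcatcacgaccaaa
novel_miR2745: aACTGGTCttgcttaattttg
novel_miR5169: tAATCTTCtggatatatgcttg

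The next sequences show how star-supported miRNAs overlap each other. The first 3 are shifted or single-base versions of a shared sequence, the pair after them differs by 1 added base at the 3′ end, and the last 2 pairs are each cut from a shared locus with a start that differs by 1 base. The seed is again in capitals. Only novel_miR810 and novel_miR2917 share a seed among these. The seeds of novel_miR127 and novel_miR128 differ by the base change, and those of the others by a shifted start.
novel_miR127: tTTGAAGActagtttattaca
novel_miR128: tCTGAAGActagtttattaca
novel_miR1686: tCATCTGAagactagtttatt
novel_miR810: aTGCCGTGttgttctgaaagaa
novel_miR2917: aTGCCGTGttgttctgaaagaaa
novel_miR3314: tGAAGAGCgcgggcagcacaa
novel_miR5542: aTGAAGAGcgcgggcagcaca
novel_miR2079: tGGTCTGTgtttgtttcaaac
novel_miR5816: gGTCTGTGtttgtttcaaac

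The star-supported miRNAs were a small share of the listed miRNAs. From the three-leaf stage to jointing their summed level was 2000.1, 2788.4, 1097.0 and 1366.5 TPM. These sums were 1.02%, 1.20%, 0.558% and 0.761% of the summed level of all listed miRNAs, in the order of the stages. The highest level that each reached in any library ranged from 2.5 to 915.8 TPM, with a median of 12.1 TPM. The median was 30.5 TPM over the 27 predicted miRNAs without a miRNA* and 29.3 TPM over the known miRNAs. For a predicted miRNA the authors required over 50 reads in 1 or more libraries, and known miRNAs were not held to that limit.

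**Figure D1:**
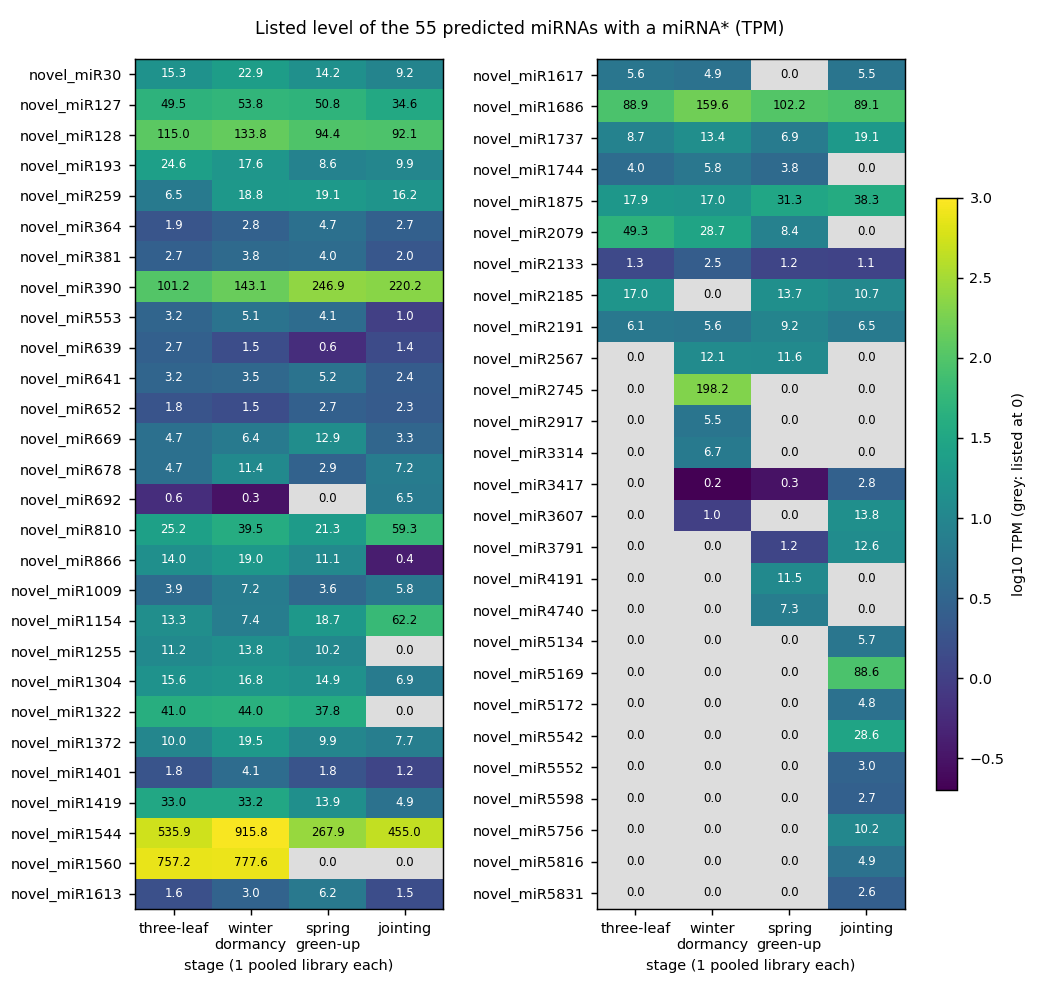
Heat map of the listed level of the 55 star-supported miRNAs (rows, in the order of the number in their names) in the libraries of the 4 stages (columns), with the TPM printed in each cell and colour on a log10 scale. Grey cells are listed at 0, and they fill most of the lower part of the right-hand block, where miRNAs with higher numbers were first listed at later stages.

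Of the 55, 29 were above 0 in all 4 libraries and 14 in a single library. Those 14 were 9 at jointing, 3 at winter dormancy and 2 at spring green-up, and no star-supported miRNA was listed at the three-leaf stage alone. For comparison, 19 of the 27 predicted miRNAs without a miRNA* were above 0 in all libraries and 2 in a single library, as were 179 and 110 of the 371 known miRNAs. The number in a name followed the first library in which the miRNA was listed. The 37 numbered 30 to 2191 were all above 0 at the three-leaf stage, the 6 numbered 2567 to 3607 were first listed at winter dormancy, the 3 numbered 3791 to 4740 at spring green-up and the 9 numbered 5134 to 5831 at jointing. All 27 predicted miRNAs without a miRNA* were above 0 at the three-leaf stage. In the star-supported rows 58 of 220 values were listed at 0, and the smallest value above 0 was 0.2 TPM. A listed 0 may stand for no reads, for a few reads, or for a miRNA not called in that library. The listed values do not tell these apart, so a 0 is not read as absence, and no fold against it is given.

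novel_miR1544, from the 3p arm of a precursor on chromosome 7D (33225951 to 33226049), had the highest level in any library and the highest sum over the stages, although novel_miR1560 was above it at the three-leaf stage. It was listed at 535.9, 915.8, 267.9 and 455.0 TPM from the three-leaf stage to jointing. The winter dormancy library was the highest and the spring green-up library the lowest. Its level was lower at spring green-up than at winter dormancy, with a ratio of 0.293 (95% interval of counting error 0.283 to 0.302). novel_miR1544 made up 26.8%, 32.8%, 24.4% and 33.3% of the summed star-supported level at the 4 stages. Its precursor is printed with the miRNA* (first) and the miRNA (second) in capitals.
novel_miR1544 precursor: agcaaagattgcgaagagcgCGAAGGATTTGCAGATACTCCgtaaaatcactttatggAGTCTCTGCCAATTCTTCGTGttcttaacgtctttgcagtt

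novel_miR1560, 22 nt from the 5p arm of another precursor on 7D (154998364 to 154998643), was nearly as abundant and had another pattern. The three-leaf and winter dormancy libraries listed it at 757.2 and 777.6 TPM, and those of spring green-up and jointing at 0. The first 2 libraries hold an estimated 15372 and 15978 reads of it. It was thus 37.9% of the listed star-supported level at the three-leaf stage, 27.9% at winter dormancy and none of the listed level later. Without novel_miR1544 and novel_miR1560 the other 53 summed to 707.0, 1095.0, 829.1 and 911.5 TPM at the 4 stages. Without novel_miR2745 as well, the winter dormancy sum was 896.8 TPM.

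novel_miR390, from the 3p arm of a precursor on 2B (323433322 to 323433461), was highest late in the series. It was listed at 101.2, 143.1, 246.9 and 220.2 TPM, so that both later libraries stood above both earlier ones. Its ratio of spring green-up over winter dormancy was 1.73 (1.65 to 1.81), under the 2-fold threshold used below. At spring green-up it was 22.5% of the star-supported level.

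The highest level fell at jointing for 17 of the 55, at winter dormancy for 22, at spring green-up for 11 and at the three-leaf stage for 5. Examples with their highest or lowest level at jointing follow. novel_miR1154 (5D, 5p) was listed at 13.3, 7.4, 18.7 and 62.2 TPM, and its ratio of jointing over spring green-up was 3.33 (2.95 to 3.76). novel_miR1875 (scaffold, 3p) was listed at 17.9, 17.0, 31.3 and 38.3 TPM. Both were highest at jointing. In the other direction, novel_miR1419 (7A, 3p) was listed at 33.0, 33.2, 13.9 and 4.9 TPM, with a ratio of spring green-up over winter dormancy of 0.419 (0.361 to 0.485) and of jointing over spring green-up of 0.353 (0.279 to 0.444). novel_miR866 (4B, 5p) was listed at 14.0, 19.0, 11.1 and 0.4 TPM, the last an estimated 9 reads, and its ratio of jointing over spring green-up was 0.036 (0.0168 to 0.072). novel_miR1322 (6B, 3p) was listed at 41.0, 44.0 and 37.8 TPM at the first 3 stages and at 0 at jointing. These 3 were lowest at jointing, where all their earlier libraries stood higher.

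Among the 29 miRNAs above 0 in every library, the highest level was 1.45 to 47.5 times the lowest, with a median of 2.53. 7 of the 29 stayed within 2-fold. The steadiest was novel_miR128, at 115.0, 133.8, 94.4 and 92.1 TPM.

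Several star-supported miRNAs were versions of each other. The mature sequences of 16 of the 55 overlapped that of another star-supported miRNA over 16 nt or more, allowing 2 mismatches, and 15 of the 55 were found letter for letter in the precursor of another predicted miRNA. For 4 of the 15, described below as pairs from a shared locus, the other precursor is that same locus. For the other 11 the listed locus is not the only candidate source. Seeds were otherwise distinct, with 52 different seeds among 55 miRNAs. Those shared were the seed of novel_miR810 and novel_miR2917, that of novel_miR3417 and novel_miR3607, and that of novel_miR553 and novel_miR4740.

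novel_miR127 and novel_miR128 came from neighbouring precursors on the minus strand of 1B, at 112783201 to 112783394 and 112783446 to 112783640, with 51 bases between them. The precursors were identical in 180 of 195 aligned columns (92.3%), and the miRNAs differed in 1 base. novel_miR1686 came from a scaffold whose precursor was 91.4% identical to that of novel_miR128 over the aligned part, and the miRNAs novel_miR128 and novel_miR1686 each occurred whole in the other's precursor. novel_miR127 was listed at 49.5, 53.8, 50.8 and 34.6 TPM and novel_miR1686 at 88.9, 159.6, 102.2 and 89.1 TPM. All 3 were highest at winter dormancy, and their sum was 253.4, 347.2, 247.4 and 215.8 TPM.

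novel_miR810 on 4A (80581616 to 80581735) and novel_miR2917 on 4D (87183450 to 87183555) had precursors identical in 103 of 104 aligned columns. Both mature sequences occurred in both precursors, so the listed subgenome does not separate them. The 22-nt form, novel_miR810, was listed at 25.2, 39.5, 21.3 and 59.3 TPM, and the 23-nt form, novel_miR2917, at 5.5 TPM at winter dormancy and at 0 elsewhere. The ratio of jointing over spring green-up for novel_miR810 was 2.78 (2.48 to 3.13).

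novel_miR2745 on 3B (727179272 to 727179624) and novel_miR5169 on 3D (112934107 to 112934417) had long precursors that were identical in 263 of 312 aligned columns (84.3%), but they were not the same piece of the stem. The first 70 bases of each precursor follow, with its own miRNA in capitals.
novel_miR2745 precursor start: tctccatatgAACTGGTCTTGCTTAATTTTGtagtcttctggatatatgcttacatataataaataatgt
novel_miR5169 precursor start: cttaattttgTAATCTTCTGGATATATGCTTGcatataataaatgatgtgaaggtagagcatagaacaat

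novel_miR2745 occupied bases 11 to 31 of the 3B precursor, counted from its first base. The counterpart of novel_miR5169 occupied bases 32 to 53 there, with 2 mismatches, so the aligned stretches follow each other without a gap. These positions come from the alignment, and whether the 3B precursor is cut at the counterpart was not tested. On the other arm the miRNA* of novel_miR2745 occupied bases 325 to 345, and the counterpart of the novel_miR5169 miRNA* bases 303 to 324, with 4 mismatches. The miRNAs were also listed in different libraries. novel_miR2745 was listed at 198.2 TPM (192 to 204) at winter dormancy and novel_miR5169 at 88.6 TPM (84.7 to 92.6) at jointing, and each was at 0 in the other 3 libraries.

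novel_miR3314 and novel_miR5542 came from the same stretch of 7D (228855409 to 228855552), with starts 1 base apart. novel_miR3314 was listed only at winter dormancy, at 6.7 TPM, and novel_miR5542 only at jointing, at 28.6 TPM. novel_miR2079 and novel_miR5816 likewise shared a locus on a scaffold. novel_miR2079 was listed at 49.3, 28.7, 8.4 and 0 TPM, and novel_miR5816 at 0 in the first 3 libraries and at 4.9 TPM at jointing. Summed over the locus, the level was 49.3, 28.7, 8.4 and 4.9 TPM, lowest at jointing but no longer 0.

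The remaining pairs were highest at jointing. novel_miR3417 was listed at 0, 0.2, 0.3 and 2.8 TPM and novel_miR3607, the same sequence without the last base, at 0, 1.0, 0 and 13.8 TPM. Their precursors had the weakest folds of the 55 by total energy, at -19.5 and -19.9 kcal/mol. novel_miR3791 was listed at 0, 0, 1.2 and 12.6 TPM, and novel_miR5756, which shared 18 nt with it, at 10.2 TPM at jointing alone. The sum over the last pair was 22.8 TPM at jointing and 1.2 TPM at spring green-up. Both sequences also lay whole within novel_miR1306, a predicted miRNA without a miRNA*, which was listed at 24.4, 0, 0 and 8.7 TPM and thus was highest at the three-leaf stage.

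**Figure D2:**
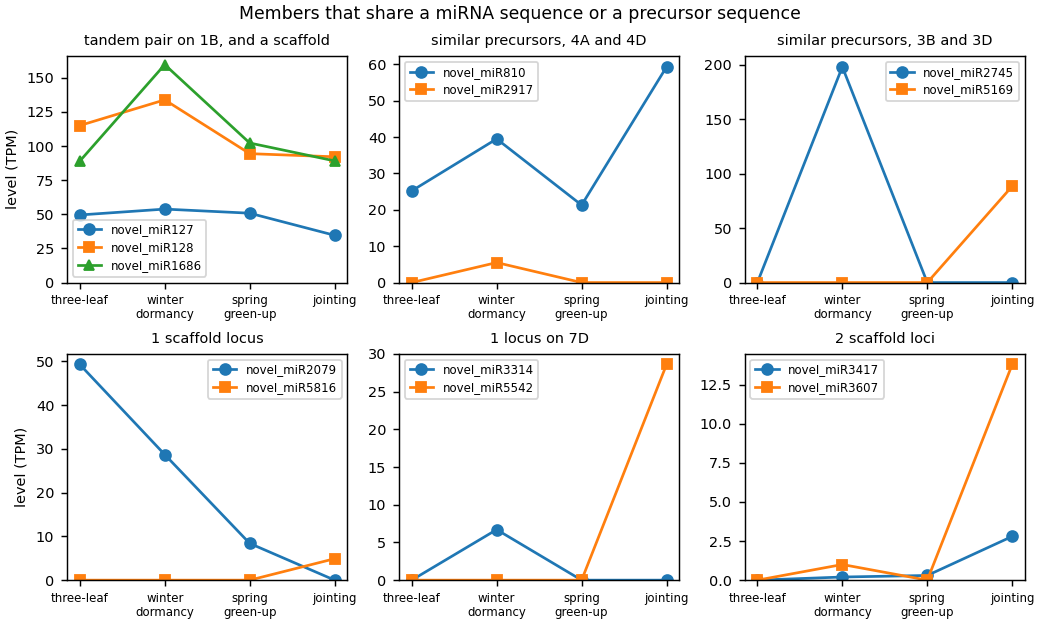
Listed level in TPM (vertical axis, linear from 0) at the 4 stages (horizontal axis) of star-supported miRNAs that share a miRNA or precursor sequence, each point 1 library. In the panels of novel_miR2745 with novel_miR5169 (198.2 and 88.6 TPM) and of novel_miR3314 with novel_miR5542 (6.7 and 28.6 TPM) the miRNAs of a pair were listed in different libraries.

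A set of star-supported miRNAs lay in precursors that also hold a known miRNA. The precursors of 5 of the 55 contained a known miRNA of the known table letter for letter on the same strand, as did those of 8 of the 27 predicted miRNAs without a miRNA*. With up to 2 mismatches and either strand counted, 12 of the 55 precursors contained a known miRNA. In 4 of the 5 letter-for-letter cases a strand of the predicted duplex overlapped the known miRNA with a shift of 6 to 8 bases. The precursors follow with the known miRNA in capitals.
novel_miR259 precursor with miR1432-5p: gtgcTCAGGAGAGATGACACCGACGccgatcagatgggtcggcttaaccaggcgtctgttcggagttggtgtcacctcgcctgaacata
novel_miR692 precursor with miR398a-3p: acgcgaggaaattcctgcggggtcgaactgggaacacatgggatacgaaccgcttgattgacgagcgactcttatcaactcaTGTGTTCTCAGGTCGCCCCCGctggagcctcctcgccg
novel_miR1255 precursor with miR396b-5p: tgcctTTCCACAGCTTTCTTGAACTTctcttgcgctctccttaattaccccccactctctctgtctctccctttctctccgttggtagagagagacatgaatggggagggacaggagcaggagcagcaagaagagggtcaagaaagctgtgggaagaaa
novel_miR1875 precursor with miR9772: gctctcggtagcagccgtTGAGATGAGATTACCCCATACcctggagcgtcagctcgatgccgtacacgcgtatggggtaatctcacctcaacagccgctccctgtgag

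The predicted miRNAs of these precursors, with the seed in capitals, were the following.
novel_miR259: gAGATGACaccgacgccgatc
novel_miR692: tCAGGTCGcccccgctggagc
novel_miR1255: aAGAAGAGggtcaagaaagctg
novel_miR1875: tAATCTCAcctcaacagccgc

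**Figure D3:**
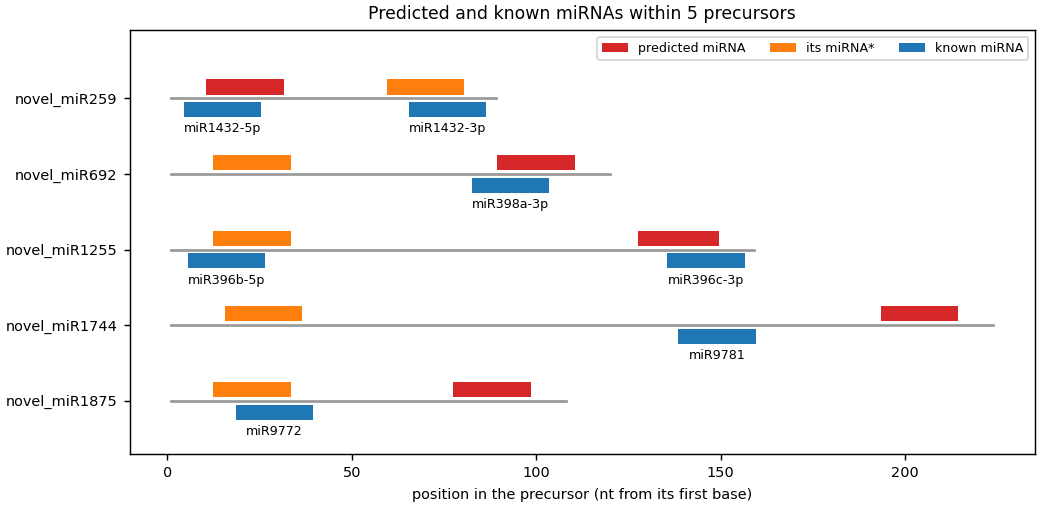
Map of 5 precursors of star-supported miRNAs, with the position in bases from the first base on the horizontal axis and, for each, the predicted miRNA and its miRNA* above the line and the known miRNA below it. In the precursors of novel_miR259, novel_miR692, novel_miR1255 and novel_miR1875 the predicted and known sequences overlap with a shift of 6 to 8 bases, and in that of novel_miR1744 the known miRNA lies between miRNA and miRNA*.

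novel_miR1255, on 6A (199645094 to 199645252), came from a precursor that holds both miR396b-5p and miR396c-3p. miR396 is a conserved plant miRNA that targets growth-regulating factors, a family of transcription factors of leaf growth. Bases 128 to 149 formed novel_miR1255 and bases 136 to 156 miR396c-3p, while the miRNA* occupied bases 13 to 33 and miR396b-5p bases 6 to 26, so that both predicted strands lay 7 or 8 bases nearer to the loop. novel_miR1255 was listed at 11.2, 13.8, 10.2 and 0 TPM and miR396c-3p at 32.7, 64.3, 14.7 and 0 TPM. Both were highest at winter dormancy and listed at 0 at jointing. miR396b-5p, from the other arm, was listed at 1921.7, 1391.2, 1706.2 and 1442.6 TPM.

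novel_miR692, on 3B (663360013 to 663360132), lay 7 bases further from the loop than miR398a-3p in the same arm. In Arabidopsis miR398 targets copper/zinc superoxide dismutases, which detoxify superoxide. novel_miR692 was listed at 0.6, 0.3, 0 and 6.5 TPM, and miR398a-3p at 75.2, 74.1, 129.7 and 170.6 TPM. Both were highest at jointing. A sequence with 2 mismatches to miR398f-5p overlapped the miRNA* on the other arm with a shift of 6 bases, and miR398f-5p was listed at 38.1, 45.5, 59.6 and 189.9 TPM.

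novel_miR259, on 2A (143411198 to 143411286), and its miRNA* each lay 6 bases nearer to the loop than miR1432-5p and miR1432-3p, a miRNA of grasses. novel_miR259 was listed at 6.5, 18.8, 19.1 and 16.2 TPM, with a ratio of winter dormancy over the three-leaf stage of 2.89 (2.37 to 3.55). miR1432-5p was listed at 43.2, 43.2, 39.1 and 83.4 TPM and miR1432-3p at 0.9, 1.4, 2.3 and 4.2 TPM. novel_miR259 was therefore above miR1432-3p and below miR1432-5p in every library.

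The miRNA* of novel_miR1875 lay 6 bases further from the loop than miR9772. novel_miR1875 had the values given above, and miR9772 was listed at 860.5, 742.0, 620.5 and 823.9 TPM. In the precursor of novel_miR1744, miR9781 lay between the miRNA and the miRNA*, and overlapped neither. novel_miR1744 was listed at 4.0, 5.8, 3.8 and 0 TPM and miR9781 at 2.4, 3.6, 2.3 and 2.2 TPM. Values of a known miRNA include reads from all loci that carry its sequence and from related sequences, so they do not measure these precursors alone.

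**Figure D4:**
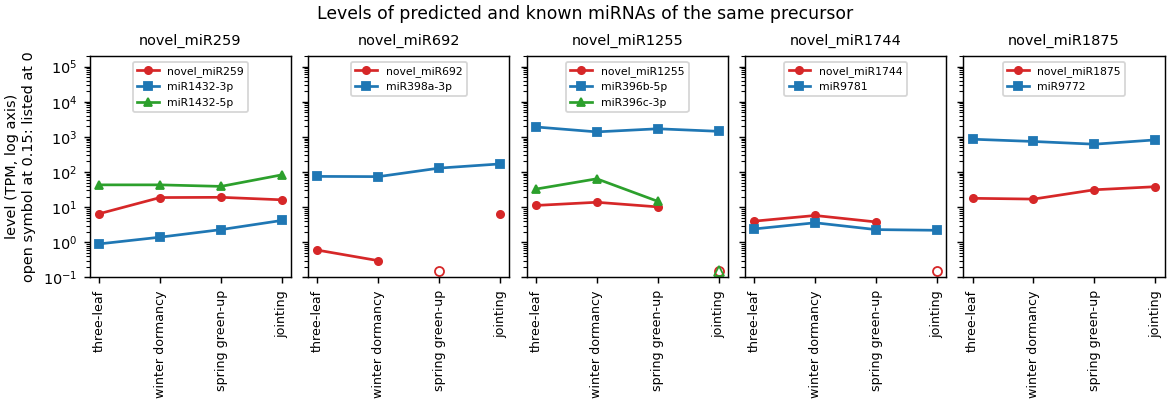
Listed level in TPM (log axis) at the 4 stages (horizontal axis) of the predicted and known miRNAs found in the same precursor, each point 1 library and open symbols listed at 0. novel_miR1255 and miR396c-3p were both listed at 0 at jointing, and novel_miR692 and miR398a-3p were both highest there (6.5 and 170.6 TPM).

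By subgenome, 8 star-supported miRNAs lay on A chromosomes, 18 on B, 11 on D and 18 on scaffolds. Of the 18 on B, 9 lay on chromosome 3B. The scaffold names carry a chromosome arm, by which the counts would be 18 on A, 22 on B and 15 on D. The scaffolds were kept below as a class of their own, called unplaced. The A miRNAs took 5.94% of the level summed over the 4 libraries, the B miRNAs 26.2%, the D miRNAs 56.2% and the unplaced ones 11.6%. Counted in estimated reads the D share was 56.6%, with a 95% Clopper-Pearson interval of 56.3% to 56.8%, and the B share 25.9% (25.7% to 26.1%). The D share rested on novel_miR1544 and novel_miR1560. Without them it was 10.4%, and the B share was 53.6%.

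The highest level of each miRNA had a median of 24.6 TPM on D (4.8 to 915.8), 16.5 TPM on A (4.1 to 59.3), 11.4 TPM on B (2.7 to 246.9) and 6.75 TPM on scaffolds (2.5 to 159.6). The ranges overlap widely. The D miRNAs summed to 1341.0, 1762.2, 316.7 and 656.8 TPM at the 4 stages, and those of B to 361.8, 645.0, 504.5 and 388.7 TPM. The A sums were 96.9, 139.5, 85.3 and 109.2 TPM and the unplaced sums 200.4, 241.7, 190.5 and 211.8 TPM, so that each class was highest at winter dormancy. For B and the scaffolds this rested on 1 miRNA each, left out after the values were seen. Without novel_miR2745 the B sums were 361.8, 446.8, 504.5 and 388.7 TPM, highest at spring green-up, and without novel_miR1686 the unplaced sums were 111.5, 82.1, 88.3 and 122.7 TPM, highest at jointing. Without novel_miR1544 and novel_miR1560, the D sums were 47.9, 68.8, 48.8 and 201.8 TPM, highest at jointing, where novel_miR5169 and novel_miR1154 were listed at 88.6 and 62.2 TPM. With scaffolds placed by the arm in their names, the A sums were 145.1, 171.0, 145.7 and 204.0 TPM, highest at jointing. The B and D sums stayed highest at winter dormancy, at 666.9 and 1950.5 TPM. Medians of the highest level were then 11.4 TPM on A, 8.95 TPM on B and 24.6 TPM on D. Of the 11 D miRNAs 4 were above 0 in all libraries, of the 18 B miRNAs 13, of the 8 A miRNAs 6 and of the 18 unplaced ones 6. The leading miRNAs were novel_miR810 on A, novel_miR390 on B, novel_miR1544 on D and novel_miR1686 among the scaffolds. The second highest on A was novel_miR1419. Classes follow the listed locus, which is not always the only candidate source. The sequence of novel_miR810 also lay in the novel_miR2917 precursor on 4D, and that of novel_miR1686 in the novel_miR128 precursor on 1B. Other loci were sought only among the listed precursors, not in the genome.

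The arms were nearly even. 26 star-supported miRNAs came from the 5p arm and 29 from the 3p arm, and the listed arm was that of the sequence's position in the precursor for all 55. The 5p miRNAs took 47.5% of the summed level and the 3p miRNAs 52.5%, led by novel_miR1560 and novel_miR1544. The median of the highest level was 11.8 TPM on the 5p arm and 12.6 TPM on the 3p arm. The sums of the 5p arm were 1134.6, 1478.2, 368.7 and 460.8 TPM, and those of the 3p arm 865.5, 1310.2, 728.3 and 905.7 TPM, so the 5p arm led in the first 2 libraries and the 3p arm in the last 2. Without novel_miR1544 and novel_miR1560 the sums were 377.4, 700.6, 368.7 and 460.8 TPM on the 5p arm and 329.6, 394.4, 460.4 and 450.7 TPM on the 3p arm.

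By length, 40 of the 55 were 21 nt, 7 were 22 nt, 5 were 20 nt and 3 were 23 nt. The 21-nt miRNAs took 72.1% of the summed level, the 22-nt miRNAs 26.5%, the 20-nt miRNAs 0.823% and the 23-nt miRNAs 0.521%. A 22-nt length was carried by novel_miR1560, novel_miR5169 and novel_miR810, the highest of that class, and 4 of the 7 lay on D chromosomes. Without novel_miR1544 and novel_miR1560 the 22-nt share was 11.0%. The 20-nt miRNAs summed to 5.6, 5.9, 1.2 and 47.0 TPM at the 4 stages, and none was above 0 in all libraries. The highest of them at jointing were novel_miR3607 and novel_miR3791. novel_miR678, the highest of 23 nt, was listed at 4.7, 11.4, 2.9 and 7.2 TPM.

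**Figure D5:**
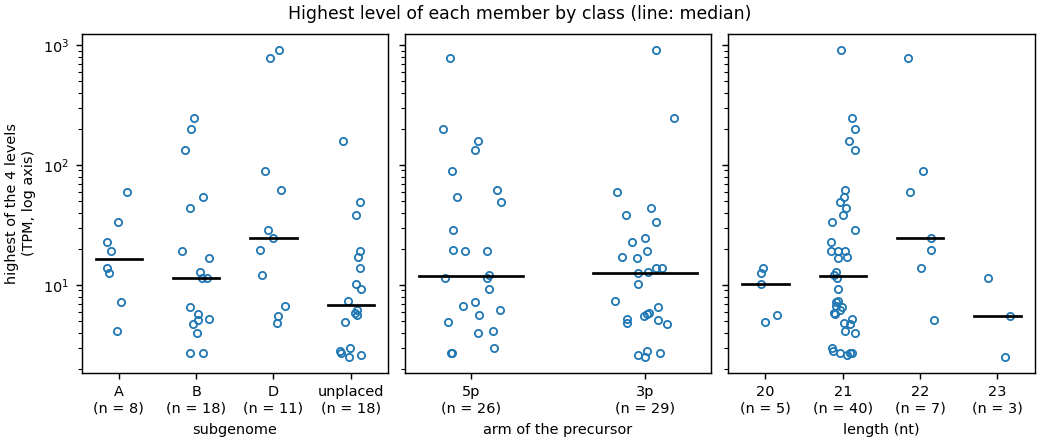
Highest level of each star-supported miRNA in any library (vertical log axis, TPM), by subgenome, by precursor arm and by length, with each circle 1 miRNA and the line the median. Medians were 16.5, 11.4, 24.6 and 6.75 TPM for A, B, D and unplaced miRNAs and 11.8 and 12.6 TPM for the 5p and 3p arms, with wide overlap.

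In sequence, 25 of the 55 star-supported miRNAs began with T (45.5%), 17 with A, 9 with G and 4 with C. Among their miRNA* strands 20 began with T, 14 with A, 12 with C and 9 with G. Among the 27 predicted miRNAs without a miRNA*, 11 began with T and 10 with A. The miRNAs beginning with T took 56.1% of the summed level and those beginning with A 40.9%. GC content ranged from 23.8% (novel_miR127) to 76.2% (novel_miR692), with a median of 45.5%.

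The miRNA and miRNA* were placed on the minimum free energy fold of each precursor. In 51 of the 55 the duplex had 3′ ends that protrude by 2 nt on both sides, the form that Dicer-like enzymes leave. Prediction had used the fold, so this is a description of what was kept. The exceptions were novel_miR390 and novel_miR669, with no overhang at either end, novel_miR3607 with 2 and 4 nt, and novel_miR3791 with 1 and 3 nt. Between 16 and 21 bases of each miRNA paired with its miRNA*, with a median of 18, and novel_miR669 paired in all 21. Precursors were 65 to 353 nt long, with a median of 108 nt, and 5 to 293 nt lay between miRNA and miRNA*. The longest was that of novel_miR2745. The folding energy per nucleotide ranged from -0.872 kcal/mol (novel_miR669) to -0.219 kcal/mol (novel_miR3607), with a median of -0.493 kcal/mol, against -0.538 kcal/mol for the predicted miRNAs without a miRNA*.

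Grass genomes hold many Stowaway elements, short inverted repeats that fold into hairpins when transcribed. The precursors were searched on both strands for the full terminal repeat of wheat Stowaway elements and for TCCGTNC, which overlaps it, where N is any base. TCCGTNC was found in 7 of the 55 precursors (12.7%), and in 13 of all 82 predicted precursors (15.9%). How often letters this short occur by chance was not tested. The full terminal repeat was found in 2 of the 55 (3.64%), novel_miR1009 and novel_miR1401, and in 5 of the 82 (6.10%). The 7 with TCCGTNC were novel_miR381, novel_miR652, novel_miR1009, novel_miR1401, novel_miR1613, novel_miR1744 and novel_miR5831. Their highest levels ranged from 2.6 to 7.2 TPM, with a median of 4.1 TPM, against 2.5 to 915.8 TPM with a median of 13.8 TPM in the other 48. Low levels were not shared by all carriers of the letters. Over the 13 among all predicted precursors the highest levels ranged from 2.6 to 97.7 TPM, with a median of 7.2 TPM. 5 of the 7 were above 0 in all libraries.

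novel_miR381, novel_miR652 and novel_miR1009 held the TCCGTNC letters on both strands and had related precursors on 2B, 3B and 5A. The precursor of novel_miR652 shows the near-perfect inverted repeat, with miRNA (first) and miRNA* (second) in capitals.
novel_miR652 precursor: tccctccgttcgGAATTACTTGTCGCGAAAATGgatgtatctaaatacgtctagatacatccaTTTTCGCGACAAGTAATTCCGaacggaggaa

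novel_miR381 and novel_miR652 overlapped the known miR1136 with 2 mismatches. novel_miR381 was listed at 2.7, 3.8, 4.0 and 2.0 TPM, novel_miR652 at 1.8, 1.5, 2.7 and 2.3 TPM and novel_miR1009 at 3.9, 7.2, 3.6 and 5.8 TPM, against 142.9, 160.7, 185.5 and 126.8 TPM for miR1136. novel_miR1401, listed at 1.8, 4.1, 1.8 and 1.2 TPM, was the reverse complement of miR5205b over 20 nt without a mismatch. novel_miR2133, at 1.3, 2.5, 1.2 and 1.1 TPM, was that of miR6191 over 23 nt with 1 mismatch. novel_miR1613 was at 1.6, 3.0, 6.2 and 1.5 TPM, and novel_miR5831 at 2.6 TPM at jointing alone. For the B box of tRNA genes, only a single form of its letters was searched, likewise on both strands. That form was found in 1 precursor of the 82, that of novel_miR678 (1.82% of the star-supported precursors and 1.22% of all predicted ones). Other forms of the B box were not searched, so whether the precursors hold them was not tested.

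Libraries were then compared stage by stage, and a miRNA was counted as higher or lower when it differed by more than 2-fold and exceeded 5 TPM in at least 1 of both libraries. Of the 55 star-supported miRNAs, 38 (69.1%) differed between some pair of stages, against 61.8% of all 453 listed miRNAs.

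At winter dormancy against the three-leaf stage, 6 were higher and 1 was lower. Over all listed miRNAs 8.39% were higher and 7.51% lower. Those higher were novel_miR259, novel_miR678, novel_miR2567, novel_miR2745, novel_miR2917 and novel_miR3314, of which the last 4 had a 0 in the three-leaf library. The ratio of novel_miR678 was 2.43 (1.91 to 3.12), with an interval that spans 2-fold. The lower one was novel_miR2185, listed at 0 at winter dormancy and at 17.0, 13.7 and 10.7 TPM in the other libraries in stage order.

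At spring green-up against winter dormancy, 6 were higher and 9 lower, with 11.3% and 18.5% over all listed miRNAs. The lower ones included the 2 most abundant, novel_miR1544 and novel_miR1560, and novel_miR193 (1D, 3p), listed at 24.6, 17.6, 8.6 and 9.9 TPM. The higher ones were novel_miR669, novel_miR1154, novel_miR1613, novel_miR2185, novel_miR4191 and novel_miR4740. novel_miR669 was listed at 4.7, 6.4, 12.9 and 3.3 TPM, with a ratio of 2.02 (1.62 to 2.51). The interval spanned the 2-fold threshold for it, for novel_miR193 (0.489, 0.402 to 0.591) and for novel_miR1613 (2.07, 1.49 to 2.84), 3 of the 8 calls with both libraries above 0. novel_miR4191 and novel_miR4740 were listed only at spring green-up, at 11.5 and 7.3 TPM.

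At jointing against spring green-up, 12 were higher and 12 lower, with 24.9% and 11.0% over all listed miRNAs. In 13 of these 24 the miRNA was listed at 0 in 1 of both libraries. The higher ones included novel_miR810, novel_miR1154, novel_miR5169 and novel_miR5542, and novel_miR1737 (scaffold, 3p), listed at 8.7, 13.4, 6.9 and 19.1 TPM. The lower ones included novel_miR1322, novel_miR1419, novel_miR866, novel_miR1255 and novel_miR2079, and novel_miR1304 (6B, 3p), listed at 15.6, 16.8, 14.9 and 6.9 TPM. For novel_miR641, novel_miR678 and novel_miR1304 the interval of the ratio spanned 2-fold, 3 of the 11 calls with both libraries above 0. novel_miR2567, also lower, was listed at 0, 12.1, 11.6 and 0 TPM.

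The star-supported miRNAs not described by their 4 values were low. novel_miR30 (1A) and novel_miR1372 (6D) peaked at winter dormancy, at 22.9 and 19.5 TPM. novel_miR364, novel_miR553, novel_miR639, novel_miR641, novel_miR1617, novel_miR2191, novel_miR5134, novel_miR5172, novel_miR5552 and novel_miR5598 reached 2.7 to 9.2 TPM at most.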

How the data were processed

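Small RNA of 18 to 30 nt was sequenced from 4 pooled leaf libraries. The authors removed rRNA, tRNA and similar reads, named reads with at most 2 mismatches to miRBase 21 plant miRNAs as known, and predicted further miRNAs with MIREAP from reads matching the Chinese Spring genome of Ensembl Plants release 31. The deposited values are RPM, called TPM here, rounded to 1 decimal. Coordinates are as deposited; genome annotation was not used here. For 4 of the 55 the coordinate span differs from the precursor length, namely novel_miR364, novel_miR669, novel_miR810 and novel_miR3607.

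Reads were estimated as the value times the library's mapped reads, taken from the study's read statistics and assumed to be the RPM denominator. On that assumption 1 read is worth 0.0458 to 0.0552 TPM. Values under 3 reads were raised to 3 reads for the calls. Intervals are exact Poisson or Clopper-Pearson intervals at 95% that treat the estimated reads as independent. They cover counting error only, and may be too narrow even for that, since PCR copies are not independent molecules. No test was made, as each stage has 1 library. Known sequences came from the study's supplementary list, and 2 doubled rows of the known table were dropped. Precursors were folded with RNAfold 2.7.2 and aligned with Biopython 1.88, in Python 3.11.15 with numpy 2.4.6, pandas 2.3.3, scipy 1.17.1 and matplotlib 3.10.9. The members and lists were chosen with earlier results of these data known. Levels over the 4 stages were printed for miRNAs above 25 TPM, with overlapping sequences or searched letters, or leading a class, and for others where a comparison turned on them. Alternatives were other pseudocounts, filters, folds and scalings, zeros as missing, sums of overlapping sequences and shares without the leading miRNAs.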

Additional observations from a re-analysis of the deposited data

How the results depend on the processing

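No paired analysis was possible because each stage was 1 library. Of 65 counts recomputed under the alternatives, 45 stayed within 1.5 times the reported count and 20 did not. With listed zeros as missing, 22 star-supported miRNAs changed between any stages in place of 38. Counts higher and lower were then 2 and 0 at winter dormancy over three-leaf, 3 and 5 at spring green-up over winter dormancy, and 5 and 6 at jointing over spring green-up, by construction because fewer values enter. With a level over 50 TPM, 7 changed at all, and the counts were 1 and 0, 0 and 3, and 3 and 0 in the same order. Without a level filter, 14 were lower at spring green-up and 19 higher at jointing. With a fold of 3, 3 were higher at spring green-up. At winter dormancy, 3 in place of 1 were lower when scaling used the sum of all listed miRNAs or with overlapping sequences summed, and the cause was not tested. novel_miR3791 and novel_miR5756 were listed at 0 at the three-leaf stage and at winter dormancy. They overlap novel_miR1306, a predicted miRNA without a miRNA*, which was listed at 24.4 and 0 TPM there. Summing overlapping sequences left 9 in place of 14 listed in a single library.

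Shares depended on the leading miRNAs. Without novel_miR1544 the shares of A, B, D and unplaced miRNAs were 8.49%, 37.4%, 37.5% and 16.6%, and without novel_miR1560 too 12.2%, 53.6%, 10.4% and 23.8%. With scaffolds placed by the chromosome arm in their names they were 9.18%, 27.2%, 63.6% and 0%, and without chromosome 3B 6.20%, 22.9%, 58.7% and 12.2%. The 5p and 3p shares were 67.8% and 32.2% without novel_miR1544, and 53.8% and 46.2% without both. Shares of 20, 21, 22 and 23 nt were 1.18%, 60.2%, 37.9% and 0.744% without novel_miR1544, and 1.69%, 86.2%, 11.0% and 1.07% without both. Taking the arm from the position changed nothing.

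Rounding to 1 decimal limits values under about 1 TPM. The unknown reads behind a listed 0 limit every call and sum that includes it, and 1 library per stage limits every comparison.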
